A study of Drosophila melanogaster with 12 samples.

Results

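Adh, Adhr, Fdh, Aldh and Ldh are 5 dehydrogenase genes among the 13919 genes counted in Malpighian tubules, the excretory organ of the fly, of Drosophila melanogaster females aged 6 days. They were chosen by symbol after their measured levels in these same libraries had been seen in earlier results, and which comparison was used is not recorded. Levels and fold changes of these 5 genes are therefore given as a description and carry no test. All 5 were found by identifier, and all 5 passed the filter on low counts that left 9302 genes for testing. The groups were 3 parental lines, of which SU26 and SU58 are Swedish and ZI418N is Zambian, and their 3 hybrids, SU26xSU58, SU26xZI418N and SU58xZI418N. All flies shared cornmeal-molasses food, 20 °C and a daily cycle of 14 h light and 10 h dark. No group was treated, and the labels do not say which line was the mother of a hybrid. Each of the 6 genotypes had 2 libraries, which the labels call biological replicates. The question the design poses is how expression differs between lines of these populations and where their hybrids lie.

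Alcohol dehydrogenase, the product of Adh, oxidises ethanol and other short alcohols from fermenting fruit to aldehydes with NAD, and aldehyde dehydrogenase, the product of Aldh, carries the aldehyde on to an acid such as acetate. Adhr (Adh-related) lies downstream of Adh, encodes a protein similar to alcohol dehydrogenase, and is translated mainly from a transcript that also holds Adh. Fdh encodes the glutathione-dependent formaldehyde dehydrogenase, a zinc enzyme unrelated in sequence to the short-chain enzyme of Adh. Ldh encodes lactate dehydrogenase, which interconverts pyruvate and lactate and so restores NAD for glycolysis. Adult Adh is known for strong expression in the fat body, the gut and the Malpighian tubules.

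Total counts per library lay between 30834175 and 43479929. Levels are in CPM, counts divided by the library total after scaling with TMM factors, and means are given ± SD with n = 2 libraries. The 6 tubule principal cell markers and the 5 stellate cell markers were at 1 CPM or more in every library. Egg chamber transcripts stood apart in SU26xZI418N replicate 2, where 8 markers summed to 293 CPM, and in SU58 replicate 1, at 193 CPM, against 1.37 to 22.2 CPM in the other 10 libraries. The sums rested on different markers. In SU26xZI418N replicate 2 yl (145 CPM) and osk (111 CPM) led, with Vm26Aa and Vm26Ab at 0.0249 CPM each. In SU58 replicate 1 Vm26Aa (118 CPM) and Vm26Ab (68.1 CPM) led, with yl at 3.66 CPM and osk at 1.45 CPM. Log2 fold changes were also taken without both SU58 replicate 1 and SU26xZI418N replicate 2. Those of SU58 against SU26 were -1.75 for Adh, -1.71 for Adhr, 0.33 for Fdh, -0.06 for Aldh and -1.38 for Ldh. Those of ZI418N against SU58 were 0.03, -0.04, -0.03, -0.46 and -1.18 in the same order of genes.

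In the Ensembl annotation of BDGP6, Adh (FBgn0000055) and Adhr (FBgn0000056) span the same interval on the plus strand of 2L, from 14615552 to 14618902. Of 5 annotated Adh transcripts 2 run on through the coding region of Adhr, and of 3 Adhr transcripts 2 contain that of Adh. The coding regions, of 768 and 816 bases, share 0 bases and lie 306 bases apart in the genome. Of the exon bases of Adhr 100% also belong to exons of Adh, and of those of Adh 93.9% belong to exons of Adhr. The deposited files give both genes a length of 2080 bases, which is that of the transcript holding both. How reads in shared exons were assigned is not given in the sources used here, so the counts of Adh and Adhr are not independent measurements.

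**Figure D1:**
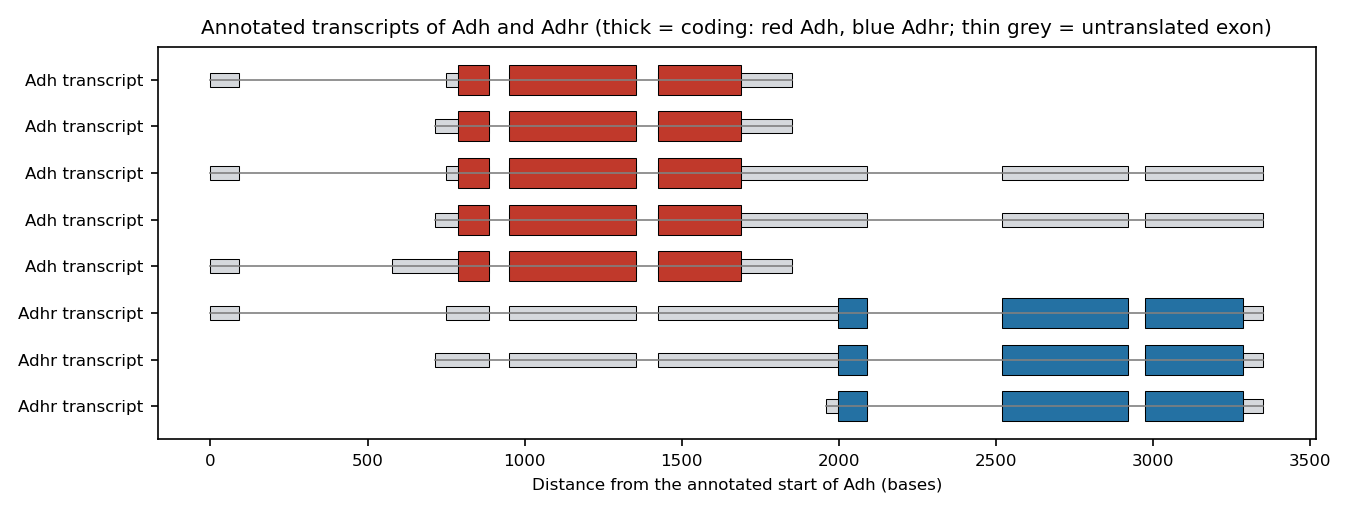
Annotated transcripts of Adh (5) and Adhr (3), with distance from the annotated start of Adh in bases on the x axis. Thick boxes are coding regions and thin boxes untranslated exon; 2 Adh transcripts reach through the Adhr coding region.

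Adh was the most abundant of the 5 genes, and its level fell into 3 separate tiers by genotype. SU26 stood at 4230 and 4174 CPM in replicates 1 and 2. SU58 stood at 1008 and 1252 CPM, and ZI418N at 1205 and 1340 CPM. The libraries of SU26 thus lay far above those of both other lines, which overlapped each other. The hybrids of SU26 lay between, with SU26xSU58 at 2013 and 2704 CPM and SU26xZI418N at 2676 and 2166 CPM. The hybrid without an SU26 parent, SU58xZI418N, stood at 1199 and 1201 CPM, within the range of its parents. In order of means the genotypes ran SU26, SU26xZI418N, SU26xSU58, ZI418N, SU58xZI418N and SU58. The SU26 hybrids overlapped each other, SU58xZI418N overlapped SU58, and ZI418N and SU58xZI418N, next to each other, did not overlap, although the lower ZI418N library (1205 CPM) was close to both SU58xZI418N libraries.

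Against SU26, Adh was 3.72-fold lower in SU58, a log2 fold change of -1.89 with an approximate standard error (SE) of 0.17. In ZI418N it was 3.30-fold lower than in SU26, a log2 fold change of -1.72 ± 0.17. Between ZI418N and SU58 the log2 fold change was 0.17 ± 0.16, with an interval of 2 SE from -0.16 to 0.50. These comparisons share the SU26 libraries or each other's libraries and are not independent. Over the 12 libraries Adh averaged 2097 CPM and ranked number 63 of the genes by CPM.

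**Figure D2:**
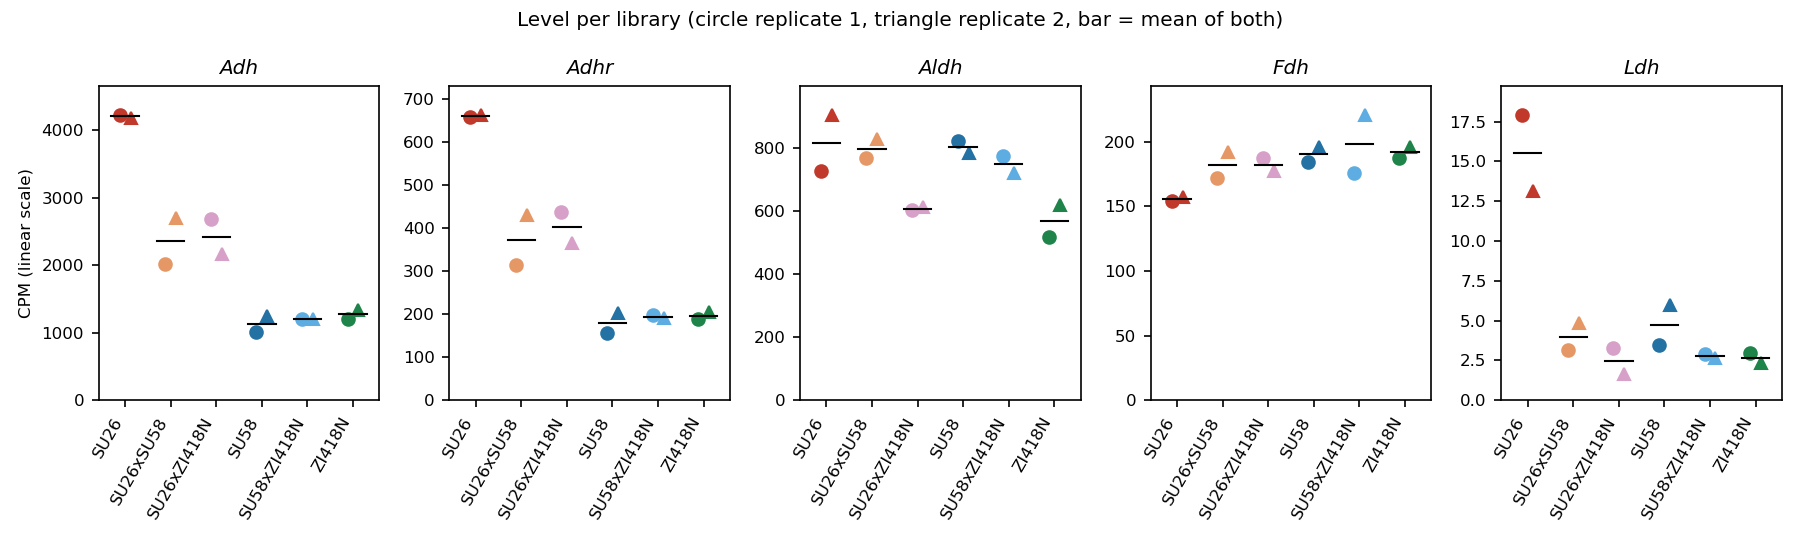
Level in CPM of each of the 5 genes in every library, 1 panel per gene on a linear axis from 0, with circles for replicate 1, triangles for replicate 2 and bars for the mean of both. Adh and Adhr are highest in SU26, intermediate in its hybrids and lowest in the genotypes without SU26, while Ldh is high in SU26 alone.

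Adhr followed Adh at a lower level in every genotype. SU26 stood at 659 and 664 CPM, SU58 at 156 and 203 CPM, and ZI418N at 189 and 205 CPM. In the hybrids Adhr stood at 315 and 431 CPM in SU26xSU58, 439 and 366 CPM in SU26xZI418N and 197 and 192 CPM in SU58xZI418N. The same tiers as for Adh appear, with SU26 highest, its hybrids between and the other 3 genotypes overlapping. Adhr was 3.68-fold lower in SU58 than in SU26 (log2 fold change -1.88 ± 0.17 SE) and 3.36-fold lower in ZI418N (-1.75 ± 0.17 SE).

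The share of Adhr in the summed counts of both genes was nearly the same in every library, although Adh itself varied 4.20-fold. It ran from 13.3% in ZI418N replicate 2 (exact 95% binomial interval 13.0% to 13.6%) to 14.4% in SU26xZI418N replicate 2 (14.2% to 14.7%). In SU26, the line with the highest counts, it was 13.5% and 13.7%, and in SU58 it was 13.4% and 13.9%. In the SU26xSU58 hybrid it was also 13.5% and 13.7%. Both SU26xZI418N libraries, at 14.1% and 14.4%, and SU58xZI418N replicate 1, at 14.1%, lay above the 6 libraries of the parental lines. The intervals cover counting error only. With the counts of both genes summed to 1, the log2 fold change was -1.89 in SU58 and -1.73 in ZI418N against SU26.

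Levels per length show how far the genes differ in abundance. Per kilobase of the length in the files, Adh averaged 1008 CPM over the 12 libraries, Aldh 349, Adhr 161, Fdh 137 and Ldh 3.01. For Adh and Adhr this length is that of the shared transcript, so the values per kilobase are approximate.

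The hybrids of SU26 can be set against the mean of their parents on either scale. For Adh the CPM mean of the SU26 and SU58 lines was 2666, their geometric mean was 2179, and the hybrid averaged 2358 CPM. In SU26xZI418N the hybrid averaged 2421 CPM, between the geometric mean of its parents, 2312, and their CPM mean, 2737. The hybrid libraries covered from 28.7% to 51.2% of the way from SU58 to SU26 in CPM, and 47.9% and 30.5% of the way from ZI418N to SU26. On the log2 scale the differences from the mid-parent were 0.11 ± 0.14 in SU26xSU58, 0.07 ± 0.14 in SU26xZI418N and 0.00 ± 0.14 in SU58xZI418N. Each was smaller than its SE, and the intervals of 2 SE reached from -0.28 to 0.40. For SU26xSU58 the sign of Adh depended on 1 library, with 0.31 without replicate 1 and -0.11 without replicate 2. The same holds for Adhr there, at 0.32 and -0.13. In SU26xZI418N Adh was at 0.22 without the replicate with egg chamber transcripts and -0.09 without the other one.

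Counted by SU26 genomes, the 6 libraries with 0 ran from 1008 to 1340 CPM of Adh with a median of 1203. The 4 libraries with 1 ran from 2013 to 2704 CPM with a median of 2421. The 2 libraries with 2 stood at 4174 and 4230 CPM. The 3 ranges did not overlap, and the mean level rose from 1201 to 2390 and 4202 CPM. For Adhr the means were 190, 388 and 661 CPM, again with ranges that did not overlap. The share of all tested genes with ranges so separated was not counted.

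**Figure D3:**
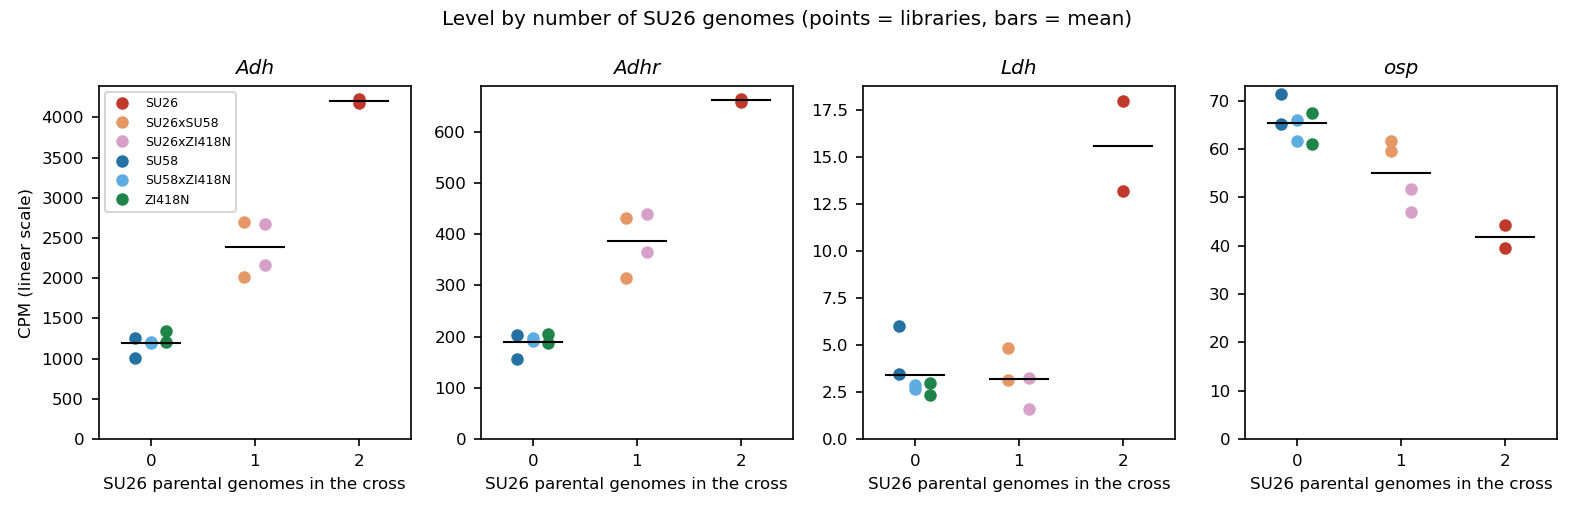
Level in CPM (linear axis from 0) of Adh, Adhr, Ldh and osp against the number of SU26 parental genomes in the cross, with points for libraries, coloured by genotype, and bars for means. Adh and Adhr step up with each SU26 genome, Ldh is high only with 2, and osp is lowest with 2.

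Ldh had the lowest level of the 5 genes, at 65 to 543 counts per library and rank 6330 of 13919 by mean CPM, and its pattern differed from that of Adh in the hybrids. SU26 stood at 17.9 and 13.2 CPM. SU58 stood at 3.47 and 6.01 CPM and ZI418N at 2.98 and 2.33 CPM. SU26 was thus above every other library, as for Adh. Its hybrids, however, stood at the level of the low parent, with SU26xSU58 at 3.16 and 4.84 CPM and SU26xZI418N at 3.25 and 1.62 CPM. SU58xZI418N stood at 2.87 and 2.64 CPM. In order of means SU26 was followed by SU58, SU26xSU58, SU58xZI418N, ZI418N and SU26xZI418N, and of these neighbours only SU26 from SU58 and SU26xSU58 from SU58xZI418N were without overlap.

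Against SU26, Ldh was 3.29-fold lower in SU58 (log2 fold change -1.72 ± 0.38 SE) and 5.86-fold lower in ZI418N (-2.55 ± 0.39 SE). Against the log2 mid-parent it was lower in SU26xSU58, at -1.10 ± 0.34, and in SU26xZI418N, at -1.40 ± 0.35. The hybrid libraries lay at -14.6% and 0.913% of the way from SU58 to SU26 in CPM, and at 4.64% and -8.02% of the way from ZI418N to SU26, where Adh lay at 28.7% to 51.2%. That difference between Adh and Ldh was not tested. For SU26xZI418N the value was -0.97 without the replicate with egg chamber transcripts and -1.99 without replicate 1. With 1 SU26 genome the 4 libraries ran from 1.62 to 4.84 CPM, inside or below the range with 0, from 2.33 to 6.01 CPM. In SU58xZI418N the difference from the mid-parent was -0.36 ± 0.33. ZI418N against SU58 gave -0.83 ± 0.38, which moved to -0.39 without SU58 replicate 2.

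Aldh separated ZI418N from the Swedish lines. It stood at 726 and 905 CPM in SU26, 820 and 784 CPM in SU58 and 518 and 617 CPM in ZI418N. Every ZI418N library lay below every Swedish library, and the Swedish lines overlapped. Against SU26 the ZI418N line was 1.44-fold lower (log2 fold change -0.52 ± 0.12 SE), and against SU58 it was 1.41-fold lower (-0.50 ± 0.12 SE). Without SU26 replicate 2 the first value was -0.35. SU58 against SU26 gave -0.02 ± 0.12, with an interval of 2 SE from -0.27 to 0.22. SU26xSU58, at 766 and 828 CPM, was like both its parents. The other hybrids differed in where they lay between theirs. SU26xZI418N, at 602 and 613 CPM, overlapped ZI418N and lay below every SU26 library. SU58xZI418N, at 774 and 720 CPM, lay above every ZI418N library and just below the SU58 libraries. The differences from the mid-parent were -0.16 ± 0.11 and 0.15 ± 0.11 on the log2 scale, each less than 2 SE from 0.

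Fdh varied least of the 5 genes, 1.43-fold over the 12 libraries. SU26 was lowest, at 154 and 157 CPM. SU58 stood at 184 and 196 CPM and ZI418N at 188 and 196 CPM. The hybrids ran from 172 to 221 CPM, all above the SU26 libraries. Fdh was 1.22-fold higher in SU58 than in SU26 (log2 fold change 0.29 ± 0.11 SE) and 1.23-fold higher in ZI418N (0.30 ± 0.11 SE), so that its direction was opposite to that of Adh, Adhr and Ldh. ZI418N and SU58 overlapped, at 0.01 ± 0.11. All neighbours in the order of means overlapped except SU26, which was last. Against the mid-parent the hybrids were at 0.08 ± 0.10, 0.08 ± 0.10 and 0.06 ± 0.10 on the log2 scale.

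Separation of libraries is a weak criterion with 2 libraries per line. Between SU58 and SU26 4 of the 5 genes had libraries that did not overlap, where 65.7% of all tested genes did, and between ZI418N and SU26 it was 5 of 5 against 64.8%. By direction, 1 was higher and 3 lower in SU58 (33.6% and 32% of all tested genes), and 1 was higher and 4 lower in ZI418N (33.1% and 31.7%). Between ZI418N and SU58 it was 2 of 5 against 67%, with 0 higher (33.9% of all genes) and Aldh and Ldh lower (33.1%). Adh and Adhr count as 1 observation here, since they share exons.

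The positions of the 5 genes are spread over the genome. Aldh (FBgn0012036) lies at 2L, 9387389 to 9391567, on the plus strand, away from Adh on the same arm. Fdh (FBgn0011768) lies at 3R, 10870906 to 10872381, and Ldh (FBgn0001258) at 3L, 6259105 to 6262694, both on the minus strand. The exons of these 3 genes share 0 bases with any other annotated gene.

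Adh and Adhr lie inside the gene osp (outspread), which runs on the opposite strand from 14599196 to 14689340. The annotated exons of osp leave a gap from 14611917 to 14636078 that holds both genes, so their exons do not overlap those of osp. Unlike Adh, osp was lowest in SU26, at 39.5 and 44.3 CPM. SU58 libraries had 71.4 and 65.2 CPM, and ZI418N libraries 61.0 and 67.5 CPM. Since osp was not one of the 5 chosen genes it was tested with edgeR (quasi-likelihood, p-values adjusted over 9302 genes by Benjamini-Hochberg). It was 1.63-fold higher in SU58 than in SU26 (log2 fold change 0.71 ± 0.10 SE, adjusted p = 0.00176) and 1.53-fold higher in ZI418N (0.62 ± 0.10 SE, adjusted p = 0.00213). Both calls held in every alternative, with edgeR or DESeq2 adjusted p-values up to 0.0252 and 0.0225. SU26xSU58 stood at 59.6 and 61.5 CPM and SU26xZI418N at 51.7 and 46.9 CPM. Hybrid values of osp were not called against the mid-parent by edgeR (adjusted p from 0.594 to 1.00).

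Other cell types that express Adh could contribute to a dissected tubule, and in bulk tissue fewer cells of a type and less RNA per cell cannot be told apart. The 8 fat body markers summed to 225 to 440 CPM in SU26, the line with most Adh. In SU58 they summed to 1104 CPM in replicate 1, which also carried egg chamber transcripts, and to 378 CPM in replicate 2, inside the SU26 range. In ZI418N they summed to 655 to 1164 CPM. The yolk protein gene Yp1 was the most abundant of them in every genotype. Of these markers Lsd-1, a lipid droplet protein gene, stood higher in SU26, at 29.4 and 24.1 CPM, than in SU58 and ZI418N, at 6.98 to 10.3 CPM. Lsp2, at 0.397 and 2.22 CPM in SU26, overlapped both other lines, and Fbp1 was at or near 0 in all libraries. In the SU26 hybrids Lsd-1 stood at 7.63 to 11.2 CPM. The 8 gut markers summed to 6.26 to 24.7 CPM over all 12 libraries. The part of fat body or gut transcripts in the level of Adh was not tested.

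Of the 6 principal cell markers, Uro and salt were, like Adh, highest in SU26, and they carried the excess of that line in the sum. The 6 principal cell markers summed to 13631 to 13687 CPM in SU26, 7147 to 7833 CPM in SU58 and 9108 to 9615 CPM in ZI418N. Uro, the urate oxidase gene, stood at 4076 ± 180 CPM in SU26 and 1685 ± 379 CPM in SU58, and salt at 5636 ± 655 and 2045 ± 189 CPM, while the SU26 libraries of the proton pump gene Vha55, at 2940 and 3678 CPM, overlapped both other lines. The other 3 markers were not highest in SU26, with means in SU26, SU58 and ZI418N of 184, 190 and 356 CPM for Irk2, 90.6, 95.5 and 102 CPM for CapaR, and 364, 370 and 551 CPM for ct. In the SU26 hybrids the sum was 7985 to 9467 CPM, which overlaps ZI418N and SU58xZI418N. Adh in these hybrids was above both. By means salt was also above both there, at 3134 ± 454 CPM in SU26xSU58 and 2977 ± 224 CPM in SU26xZI418N. It stood at 2738 ± 197 CPM in ZI418N and 2442 ± 570 CPM in SU58xZI418N, with libraries that overlapped. Uro was below both by means, at 1661 ± 407 and 1662 ± 89.0 CPM in the SU26 hybrids, against 2048 ± 363 and 1873 ± 635 CPM. The 5 stellate cell markers went the other way, with 429 to 508 CPM in SU26, 597 to 600 CPM in SU58 and 835 to 899.8 CPM in ZI418N. The part of these shifts in the levels of Adh was not tested.

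**Figure D4:**
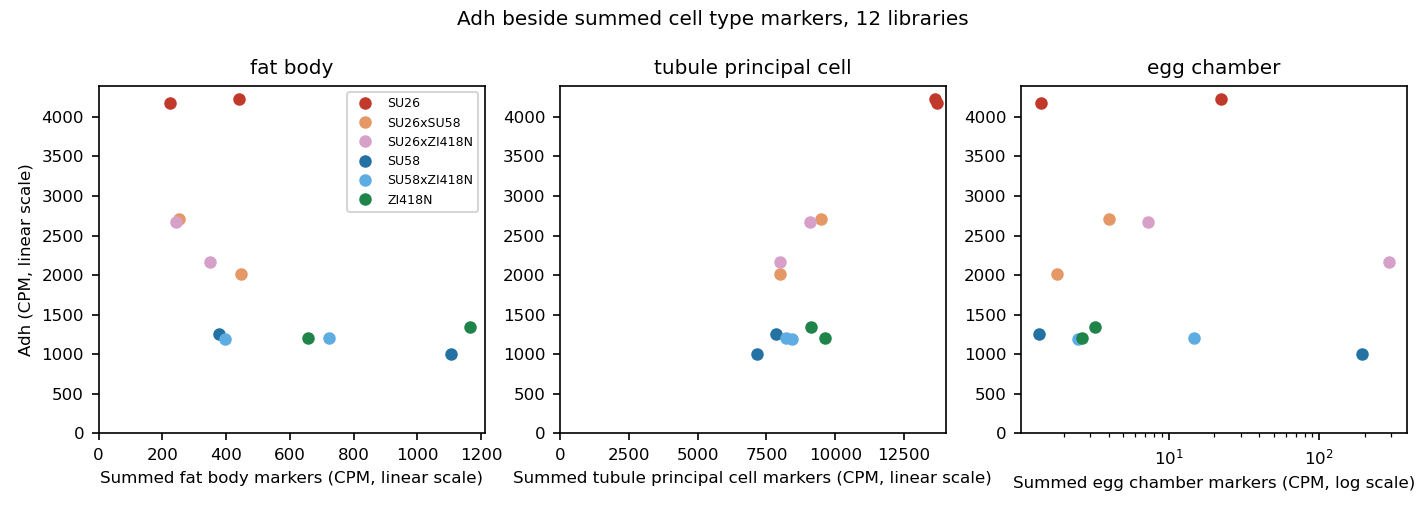
Adh in CPM (linear axis) against the summed CPM of fat body, tubule principal cell and egg chamber markers in the 12 libraries, with points coloured by genotype; the egg chamber axis is a log scale. The SU26 libraries are highest in Adh and in principal cell markers and low to intermediate in fat body markers.

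Markers of blood cells and muscle were set beside Ldh because its own level was low. The 4 hemocyte markers summed to 12.9 to 13.5 CPM in SU26 and to 1.80 to 10.0 CPM in the other genotypes, with He at or near 0 throughout. Only the sum set SU26 apart. Hml in SU26, at 6.15 and 9.02 CPM, overlapped SU58 and ZI418N, at up to 7.62 CPM. NimC1 (0.859 and 0.893 CPM) and PPO1 (6.44 and 2.97 CPM) were above both other lines in SU26. For each of them SU58xZI418N replicate 2, at 0.967 and 3.00 CPM, was above at least 1 SU26 library. The 6 muscle markers summed to 168 to 177 CPM in SU26 and 111 to 191 CPM elsewhere. The part of these cells in the level of Ldh was not tested.

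Genes with the pattern most like each of the 5 were sought among those with a mean of at least 10 CPM, by Pearson's r of log2 CPM over the 12 libraries. The libraries of a genotype share their parents, so r is a description and has no p. The search covered 5362 genes, and the genes named here are the 3 with the highest r. Outside the 5 genes, r was above 0.9 for 40 genes with Adh and 33 with Adhr. It was above 0.9 for 39 with Aldh, 59 with Ldh and 0 with Fdh. The genes most like Adh were crc, which encodes a transcription factor of the ATF4 family (r = 0.97), Ssk, a septate junction gene (r = 0.97), and CG10621 (r = 0.97). Ssk stood at 589 CPM in SU26, 265 CPM in SU58, 266 CPM in ZI418N and 414.5 and 459 CPM in the hybrids of SU26. The genes most like Adhr were O-fut2, Dolk and CG10621, with r from 0.96 to 0.97. Adh and Adhr themselves had r = 0.998, Adh and Ldh 0.66, and Adh and osp -0.87. Spearman's rho of these pairs was 0.96, 0.48 and -0.80. For Aldh the genes were CG15117, CG5404 and CG11149 (r from 0.96 to 0.97), and CG5404 fell from 45.7 CPM in SU26 to 15.2 CPM in ZI418N. For Ldh they were Lmpt, CG16799 and CG32485 (r from 0.95 to 0.97), and for Fdh CG10467, Fitm and GstO2, at a lower r of 0.87 to 0.88. Lmpt, at 105 CPM in SU26 and 36.5 to 63.6 CPM in the other 5 genotypes, was like Ldh highest in SU26.

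The genes around the 5 dehydrogenases were followed in 6 lists of 58 genes, of which 54 were tested. They covered aldehyde and acetate metabolism, formaldehyde and folate one-carbon metabolism, dehydrogenase relatives, pyruvate and NADH shuttles, glycolysis, and transcription factors known for Adh or Ldh. Between SU58 and SU26 10 were higher and 8 lower by edgeR, 33.3% of the 54 against 17.6% of all tested genes (8.06% higher and 9.56% lower). Between ZI418N and SU26 7 were higher and 9 lower, 29.6% against 24% of all genes (10.9% and 13.1%). Between ZI418N and SU58 7 were higher and 13 lower, 37% against 16.9% (7.58% and 9.33%). Without both libraries that carried egg chamber transcripts, fewer listed genes were called between SU58 and SU26 and between ZI418N and SU58. Fewer of all tested genes were called as well. SU58 was then left with 1 library, and calls fell likewise without SU58 replicate 2, which did not carry those transcripts. The part of egg chamber transcripts in this fall was not tested. Single libraries also decided these counts. Leaving out either library of a line compared lowered the calls in all 3 comparisons of parental lines, among the listed genes and among all genes. Leaving out either SU58xZI418N library lowered them between SU58 and SU26.

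Formaldehyde and folate genes differed between lines in both directions. Between ZI418N and SU26 2 of 5 were higher and 3 lower, where 24% of all tested genes were called (10.9% higher and 13.1% lower). The list median was -0.50 on the log2 scale against 0.01 for all genes. CG4390 was 1.95-fold higher in ZI418N than in SU26 (69.7 ± 1.22 against 35.7 ± 4.79 CPM, edgeR adjusted p = 0.00107) and 1.83-fold higher in SU58 (65.3 ± 0.274 CPM, adjusted p = 0.00278), the direction of Fdh. Nmdmc, a mitochondrial methylenetetrahydrofolate dehydrogenase gene, was 4.49-fold lower in ZI418N than in SU26 (2.77 ± 0.151 against 12.5 ± 4.25 CPM, adjusted p = 0.000492). The serine hydroxymethyltransferase gene Shmt was 1.94-fold lower in ZI418N than in SU58 (29.3 ± 1.33 against 56.8 ± 0.478 CPM, adjusted p = 0.000600). The cytosolic folate enzyme gene pug was 2.18-fold lower in that comparison (35.2 ± 2.01 against 76.6 ± 1.71 CPM, adjusted p = 0.00125). These calls held in every alternative.

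Among 6 tested dehydrogenase relatives, CG18814 moved opposite to Adh. Its level was 12.2 ± 0.572 CPM in SU26, and 34.1 ± 0.180 CPM for SU58 and 34.7 ± 0.952 CPM for ZI418N (edgeR adjusted p = 5.15e-05 and 2.81e-05 against SU26). The sorbitol dehydrogenase gene Sodh-1 was 2.06-fold higher in ZI418N than in SU26 (364 ± 89.5 against 176 ± 38.2 CPM, adjusted p = 0.00462), and its paralogue Sodh-2 was 4.53-fold lower (2.16 ± 0.473 against 9.81 ± 5.61 CPM, adjusted p = 0.00353). Without SU26 replicate 1 Sodh-2 was 2.70-fold lower (edgeR adjusted p = 0.0111). Fbp2, a relative of Adh, stood at 1.19 CPM or less in every genotype mean and was 3.93-fold lower in ZI418N than in SU26 (adjusted p = 0.00311). In all, 2 of 6 were higher and 2 lower between ZI418N and SU26, 66.7% against 24% of all tested genes.

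In aldehyde and acetate metabolism 3 of 13 genes were higher and 1 lower in SU58 than in SU26. That is 30.8% against 17.6% of all tested genes (8.06% higher and 9.56% lower). In ZI418N 1 was higher and 5 lower than in SU58, 46.2% against 16.9% (7.58% higher and 9.33% lower). CG31075 averaged 278.6 ± 1.44 CPM in SU58, 34.4 ± 16.4 CPM in ZI418N (8.09-fold lower, edgeR adjusted p = 0.000667) and 124 ± 31.5 CPM in SU26. Without ZI418N replicate 1 it was 12.2-fold lower in ZI418N than in SU58 (edgeR adjusted p = 0.00131). It was also 2.38-fold above the mid-parent in SU26xZI418N (155 ± 29.3 CPM, edgeR adjusted p = 0.0457), a call lost in 13 alternatives. The aldehyde oxidase gene AOX3 was 1.56-fold higher in SU58 than in SU26 (521 ± 16.8 against 333 ± 35.7 CPM, adjusted p = 0.00476), which ended without SU58 replicate 1 (adjusted p = 0.0502). Aldh-III, another aldehyde dehydrogenase gene, was 1.48-fold higher in ZI418N than in SU26 (127 ± 14.3 against 85.8 ± 12.4 CPM, adjusted p = 0.00836), opposite to Aldh, and this call was lost without SU26 replicate 1 or ZI418N replicate 2 (up to 0.0706).

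Glycolysis genes were lower in SU58 than in SU26 in 4 of 12 and higher in 0 by edgeR (0 higher and 7 lower at an unadjusted p under 0.05, and 0 and 6 by DESeq2), with a median log2 fold change of -0.30. The edgeR calls were 33.3% of the list against 17.6% of all tested genes (8.06% higher and 9.56% lower). The hexokinase gene Hex-A was 1.94-fold lower (256 ± 15.6 against 496 ± 38.2 CPM, adjusted p = 0.00233) and Gapdh1 was 1.52-fold lower (696 ± 21.6 against 1061 ± 31.9 CPM, adjusted p = 0.00273), and both calls held in every alternative. Between ZI418N and SU58 3 were higher and 1 lower, 33.3% against 16.9% of all tested genes (7.58% higher and 9.33% lower). Hex-A was 1.99-fold higher in ZI418N than in SU58 (509 ± 72.2 CPM, edgeR adjusted p = 0.00139). Hex-A of ZI418N was thus at the level of SU26, where Ldh of ZI418N was not. Of 11 genes of pyruvate and NADH shuttles 1 was higher and 2 lower in SU58 than in SU26, 27.3% against 17.6%. Gpdh1, the glycerol-3-phosphate dehydrogenase gene whose enzyme also restores NAD, was 1.58-fold lower in ZI418N than in SU58 (1368 ± 129 against 2168 ± 14.4 CPM, adjusted p = 0.00211). Its SU26 level was 1683 ± 149 CPM.

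Among factors known for binding at Adh or for driving Ldh, Adf1 stood at 20.7 ± 4.77 CPM in SU26 and 21.2 ± 2.28 CPM in SU58. Aef1 stood at 39.6 ± 1.34 and 36.9 ± 1.76 CPM in these lines. Hr39 stood at 52.4 ± 7.41 and 53.3 ± 0.939 CPM there and at 67.4 ± 0.112 CPM in ZI418N, where its call against SU26 (edgeR adjusted p = 0.0290) was lost in 6 alternatives (up to 0.150). The C/EBP gene slbo was at 0.126 CPM or less in every genotype mean and was not tested. ERR, the gene of the nuclear receptor that drives Ldh in fly larvae, was highest in SU58, at 196 ± 5.11 CPM, with 136 ± 6.59 CPM in SU26 and 116 ± 15.5 CPM in ZI418N. Its call between ZI418N and SU58 (adjusted p = 0.0135 by edgeR) was lost in 4 alternatives (up to 0.103). Of the 7 tested factors 1 was called higher in SU58 than in SU26 (14.3% against 17.6% of all tested genes), ftz-f1, a call lost in 13 alternatives. Against SU26, 1 was called higher in ZI418N, Hr39 (14.3% against 24%). Between ZI418N and SU58 2 were called higher and 1 lower, 42.9% against 16.9%. The lower one was ERR. Those higher in ZI418N were Myc (log2 fold change 0.76 ± 0.18 SE, edgeR adjusted p = 0.0179) and Hr39 (0.34 ± 0.10 SE, adjusted p = 0.0486). The calls of Myc and Hr39 there were lost in 4 and 12 alternatives.

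**Figure D5:**
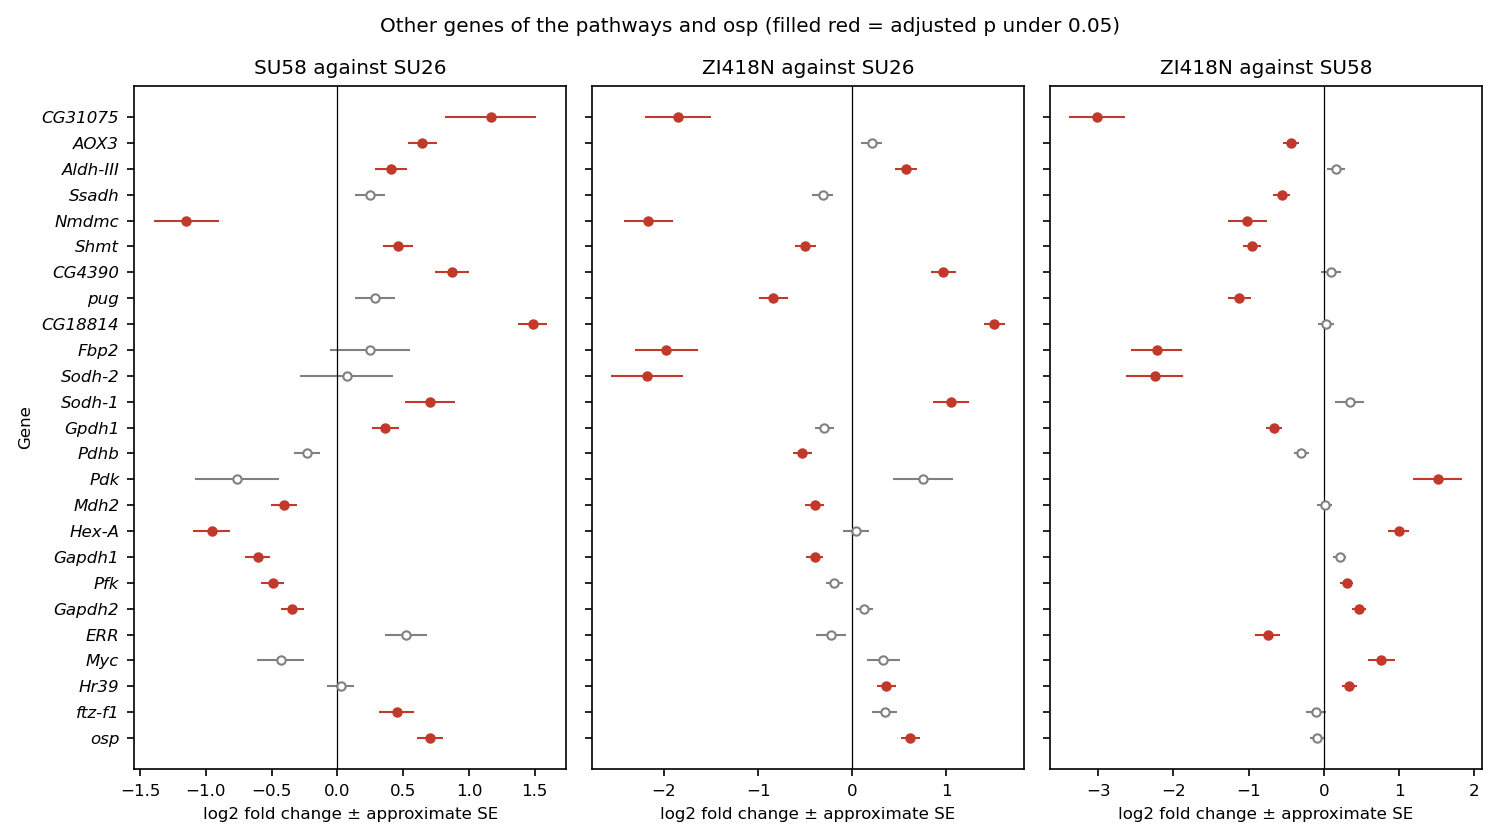
Log2 fold change ± approximate SE of the 24 listed genes named by rule, 4 from each list by adjusted p, and of osp in the 3 comparisons of parental lines, with filled red points where the adjusted p was under 0.05. CG18814, CG4390 and osp are higher in both other lines than in SU26, and CG31075 is lowest in ZI418N.

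In the hybrids, few listed genes were called against the log2 mid-parent. In SU26xSU58 0 of 54 were called by edgeR, 5 at an unadjusted p under 0.05 and 1 by DESeq2, and 0.108% of all tested genes were called. In SU58xZI418N 0 of 54 were called by edgeR, 0 at an unadjusted p under 0.05 and 0 by DESeq2, against 0.387% of all genes (0.376% higher and 0.0108% lower). In SU26xZI418N 3 were higher and 1 lower, 7.41% against 5% of all genes (3.29% higher and 1.71% lower). With 1 library left out, or without both libraries that carried egg chamber transcripts, fewer listed genes were called there. Calls over all genes fell too, except without SU26xZI418N replicate 1, where they rose. That fit kept only replicate 2 of this hybrid, which carried egg chamber transcripts. Why the calls rose was not tested.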

How the data were processed

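RNA was poly-A selected and sequenced as paired reads of 125 bases, per the labels' protocols. The values the authors deposited are raw counts per gene, with gene lengths, per the file headers. The aligner, counting tool, strand setting and genome build were not given in the sources used here. Names came from a FlyBase identifier table (13749 genes) or the CG number (146), and 24 stayed unnamed. Genes were filtered with edgeR's filterByExpr (9302 left), scaled with TMM, and fitted with a mean per genotype in edgeR 4.0.16 and R 4.3.3 (6 residual degrees of freedom). Each hybrid was set against the log2 mean of its parents. Calls used the quasi-likelihood test with a Benjamini-Hochberg adjusted p under 0.05. The approximate SE was taken from the size of the log2 fold change over the root of its F statistic. The fit was tested on simulated data.

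The 5 genes and the lists were chosen with earlier results of these data known. Outside the 5 genes and osp, up to 4 genes per list with the lowest adjusted p were to be named, and Adf1, Aef1 and slbo were named after their values were seen. DESeq2 1.42.0, other scaling, no filter, a replicate term and left-out libraries were tried. The 2 libraries of a genotype were not copies (mean chi-square per gene 13.8 to 123), and p-values measure only the spread between such libraries. No sequence is shown, since none was in the tables used here. Counts per allele were not analysed here.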

Additional observations from a re-analysis of the deposited data

How the results depend on the processing

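No called result changed direction. All 162 values of the 5 genes under other scaling, DESeq2, no filter, summed Adh and Adhr counts, a replicate term, or without both SU58 replicate 1 and SU26xZI418N replicate 2 moved by less than 1 SD between replicates. Leaving out 1 library moved some log2 fold changes. Adh ran from -0.11 to 0.31 in SU26xSU58 against the mid-parent. Adhr ran from -2.08 to -1.70 (SU58 against SU26), -0.046 to 0.33 (ZI418N against SU58) and -0.13 to 0.32 (SU26xSU58 against the mid-parent). Fdh ran from -0.12 to 0.21 (SU58xZI418N against the mid-parent). Aldh ran from -0.17 to 0.15 (SU58 against SU26), -0.67 to -0.35 (ZI418N against SU26) and -0.63 to -0.38 (ZI418N against SU58). Ldh ran from -2.16 to -1.37 (SU58 against SU26), -1.18 to -0.39 (ZI418N against SU58) and -1.99 to -0.97 (SU26xZI418N against the mid-parent).

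Counts of all called genes moved more, and the cause was not tested. Without 1 library they ran from 492 to 1939 (SU58 against SU26, 1639 with all), 1217 to 2565 (ZI418N against SU26, 2235 with all), 703 to 1877 (ZI418N against SU58, 1573 with all), 4 to 20 (SU26xSU58, 10 with all), 25 to 1773 (SU26xZI418N, 465 with all) and 13 to 44 (SU58xZI418N, 36 with all). Without both libraries named above they were 618 (SU58 against SU26), 860 (ZI418N against SU58), 6 (SU26xSU58) and 14 (SU26xZI418N). DESeq2 gave 69, 1280 and 83 in the 3 hybrids, and no filter gave 22 in SU26xSU58 and 821 in SU26xZI418N. The replicate block gave 68 in SU26xZI418N. The replicate numbers showed no pairing common to all genotypes. Replicate differences of 15 pairs of genotypes correlated at -0.22 to 0.32, with 4 above 0.1. A batch shared by some genotypes was not tested.

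Counts over the 54 listed genes, whose alternatives were chosen after seeing the data, ran without 1 library from 4 to 19 (SU58 against SU26), 10 to 19 (ZI418N against SU26), 7 to 20 (ZI418N against SU58), 0 to 1 (SU26xSU58) and 0 to 3 (SU26xZI418N). Without both libraries they were 6, 8 and 0 (SU58 against SU26, ZI418N against SU58, SU26xZI418N). DESeq2 gave 25 (ZI418N against SU26), 1 (SU26xSU58) and 9 (SU26xZI418N), no filter 1 (SU26xSU58), and the replicate block 1 (SU26xZI418N). Of 49 calls of named genes 21 held in every alternative.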
